A study of Mus musculus with 8 samples.

Results

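Neuronal chloride is set by cation-chloride cotransporters of the SLC12 family and by the WNK kinases that act on them, and the transcripts of 7 such genes were examined in the hippocampus of young mice after repeated ketamine anesthesia. The genes are Slc12a2, which encodes the importer NKCC1, Slc12a5, which encodes the neuronal exporter KCC2, the kinases Wnk1, Wnk2 and Wnk3, and the kinases Stk39 (SPAK) and Oxsr1 (OSR1). They were chosen by symbol, and all 7 were found among the 20802 genes of the deposited table. Hippocampal RNA came from 8 male C57BL/6 mice labelled with an age of P28. The 4 mice of the Anesthesia group had received intraperitoneal ketamine at 35 mg per kg daily for 5 days from PND16, and the 4 mice of the Control group had received saline by the same protocol, although their sample titles call them untreated. RNA was taken 1 week after the last injection. The tissue is whole hippocampus, so that fewer cells of a type and less RNA per cell cannot be told apart.

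NKCC1 carries sodium, potassium and chloride into the cell, and KCC2 carries potassium and chloride out. In immature neurons NKCC1 dominates and GABA can depolarise the cell, while the postnatal rise of KCC2 lowers intracellular chloride and makes GABA-A receptor currents inhibitory. WNK kinases respond to chloride and activate SPAK and OSR1, which phosphorylate the cotransporters in a reciprocal manner, so that NKCC1 is activated and KCC2 is inhibited. NKCC1 is also abundant outside neurons, in oligodendrocyte lineage cells and in the choroid plexus epithelium, which secretes cerebrospinal fluid, whereas KCC2 is confined to neurons.

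Slc12a5 is transcribed from alternative first exons, which give rise to the KCC2a and KCC2b forms, and the deposited values sum all transcripts of a gene. RefSeq places the starts 7142 bases apart on the plus strand of chromosome 2 (GRCm38.p6), at 164960846 and 164967988. The bases before each start are shown up to the first annotated exon, because the values below cannot be divided between the starts. Capitals mark a GC box (GGGCGG) or an E-box (CACGTG, the motif bound by USF1 and USF2), each searched on both strands.
Slc12a5 upstream start, chr2:164960596-164960801: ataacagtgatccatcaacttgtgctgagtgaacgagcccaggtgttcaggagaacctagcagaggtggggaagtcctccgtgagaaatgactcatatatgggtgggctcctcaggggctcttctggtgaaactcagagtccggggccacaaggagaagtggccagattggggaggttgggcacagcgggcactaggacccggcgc
Slc12a5 downstream start, chr2:164967738-164967982: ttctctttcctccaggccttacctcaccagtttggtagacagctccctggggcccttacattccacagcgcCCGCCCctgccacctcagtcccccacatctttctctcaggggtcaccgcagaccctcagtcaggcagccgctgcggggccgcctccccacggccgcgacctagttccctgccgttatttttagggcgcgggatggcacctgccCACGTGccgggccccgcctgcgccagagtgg
The E-box begins 36 bases before the downstream RefSeq start, and none was found in the 250 bases before the upstream start. Of 32817 promoter windows of 250 bases, 6.02% held an E-box and 32.7% a GC box. Among the 6 genes with a promoter entry that could be used, which leave out Slc12a2, Slc12a5 was the only one with an E-box in its window. The longer EGR motif GCGTGGGCG was found in none of these windows and in 0.536% of all windows.

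The deposited values are counts that the authors normalized between libraries. Their totals were 18702634 to 19231119 per mouse. Low values gathered at steps that place the reads assigned to these genes at approximately 15400000 to 22100000 per library. Of the low values, 50.6% to 73.1% lay within 0.1 of a whole number of these steps, so read counts were not recovered, and groups were compared with limma on log2(value + 1) across the 18865 genes whose mean reached 10. Fold changes are on that scale. Dentate granule markers (Prox1 and 5 others), CA1 markers and pan-neuronal markers were all detected. Libraries differed in choroid plexus content: the 14 choroid plexus markers summed to 46345 to 104754 normalized counts in Anesthesia replicate 1 and Control replicates 2, 3 and 4, and to 4404 to 10055 in the other 4 mice. All 14 had a lower mean log2 level in the Anesthesia group (median log2 fold change -1.72), 0 of the 14 had an unadjusted p under 0.05, and the only marker at 0 in any mouse was Kcne2 in Control replicate 1.

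By level per kilobase of the longest coding transcript, the KCC2 gene came first in both groups. Slc12a5 had 1015 ± 173 normalized counts per kilobase after anesthesia and 942.2 ± 49.6 in Control mice (mean ± SD of 4), and its lowest mouse lay above the highest mouse of any other gene examined. Slc12a2 came next with 541.9 ± 89.5 and 638.8 ± 164.9 normalized counts per kilobase (mean ± SD of 4). Stk39 followed with a mean over the 8 mice of 414.4 per kilobase, Wnk1 with 390.6, Oxsr1 with 259.8, Wnk3 with 180.8 and Wnk2 with 120.04. The ranges over the 8 mice overlapped between Slc12a2 and Stk39, between Stk39 and Wnk1, and between Wnk3 and Wnk2, and did not overlap between the other neighbours in this order. Wnk4, which acts mainly in the kidney, had a mean of 5.51 per kilobase. With exon unions in place of the longest transcript, 5 of the 7 genes kept their place in the order, with Slc12a5 still first. With the median coding transcript 1 did, and Wnk1 came first at 3642 normalized counts per kilobase, above Slc12a5 at 1274.

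**Figure D1:**
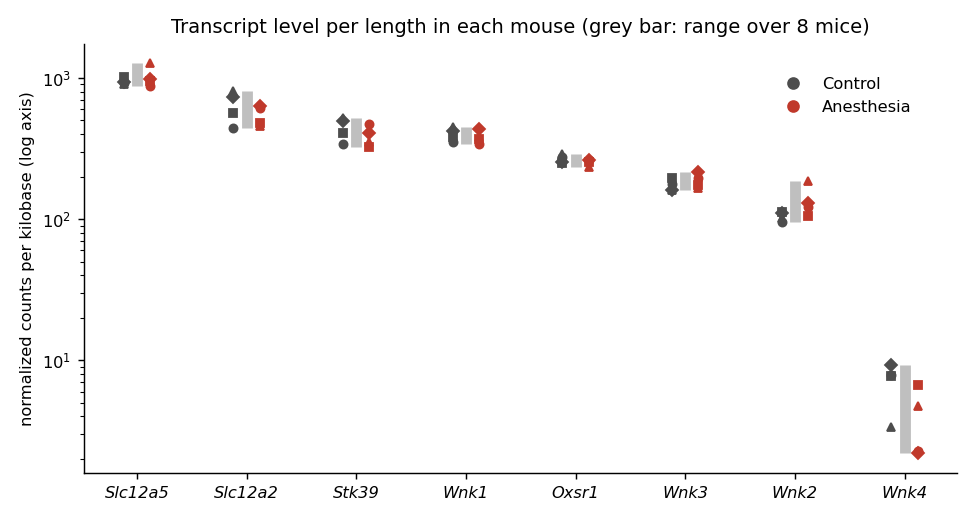
Normalized counts per kilobase of the longest coding transcript (log axis) for the 7 genes and Wnk4, with 1 point per mouse (grey for Control, red for Anesthesia; marker shapes give the replicate number) and a grey bar for the range over 8 mice. Slc12a5 stands above the other genes and Wnk4, with a mean of 5.51, far below them.

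Wnk1 had the highest level per kilobase of the WNK family with each of the 3 length choices. By the longest transcript, its share of the 4 WNK genes was 53.9% ± 2.39 after anesthesia and 58.2% ± 3.87 in Control mice (mean ± SD of 4). Wnk3 held 26.5% ± 2.97 and 25.5% ± 3.14, and Wnk2 held 19.04% ± 4.16 and 15.3% ± 0.872, in the same order (mean ± SD of 4). The size of the Wnk1 share depends on the length taken for it, since it has 15 coding transcripts of very unequal length. Over the 8 mice its mean share was 43.8% with exon unions and 89.5% with the median coding transcript. The shares of the groups overlapped for each gene, for Wnk2 only narrowly, at 16.02% to 25.1% after anesthesia and 14.1% to 16.03% in Control mice.

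Between the groups, no gene of the set passed the test. In limma, 0 of the 7 passed at an adjusted p of 0.05, as did 0 of all 18865 genes (0%). Of the 7, 1 gene, Wnk2, had an unadjusted p under 0.05, against 8.02% of all genes, while limma voom gave 0 by either threshold. The values of the groups overlapped for all 7, and 5.04% of all genes (2.81% higher and 2.23% lower in the Anesthesia group) had groups that did not overlap. The median log2 fold change of the 7 genes was -0.065, with 3 higher and 4 lower in the Anesthesia group, and that of all genes was -0.004.

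**Figure D2:**
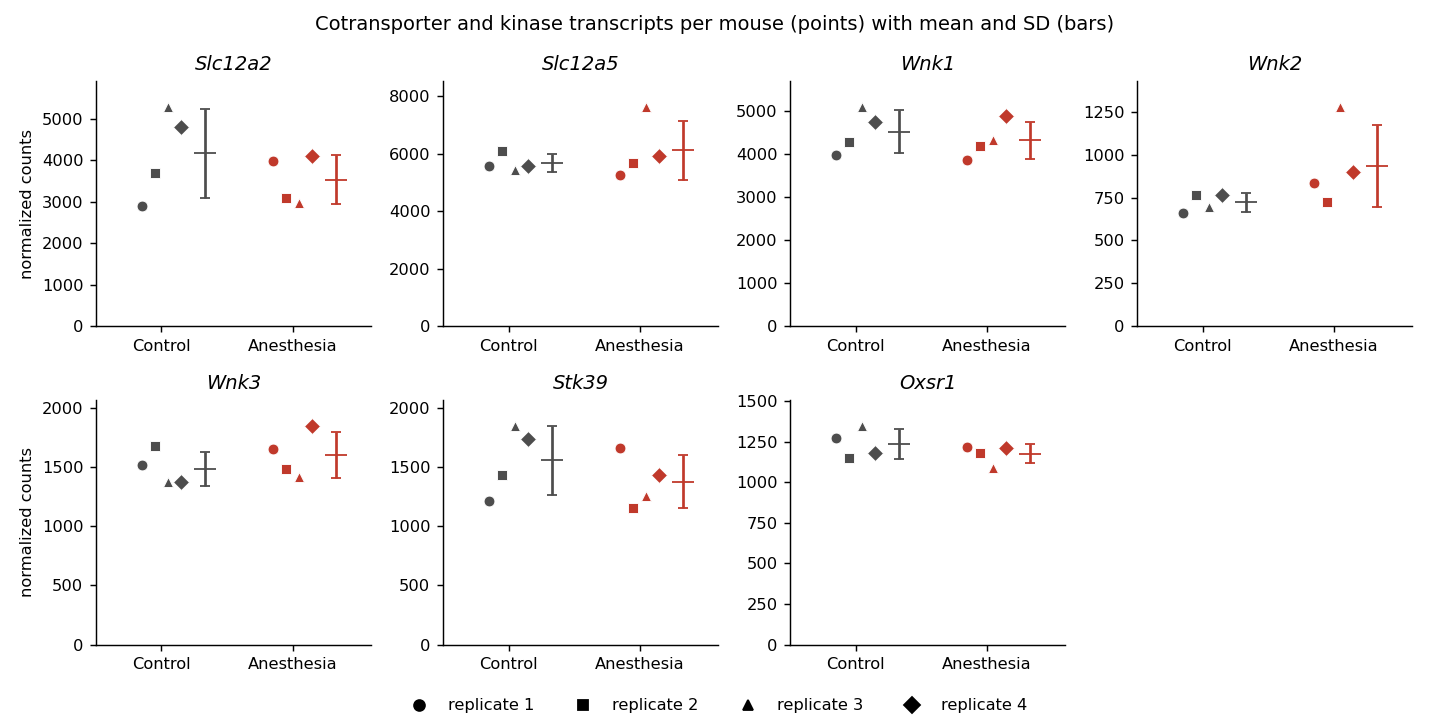
Normalized counts of the 7 genes in each mouse (linear axes from 0), with the mean and SD of 4 mice beside the points. The groups overlap in every panel, and Anesthesia replicate 3 stands apart for Slc12a5 (7622) and Wnk2 (1277).

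Among the cotransporters, Slc12a2 (ENSMUSG00000024597, chromosome 18, 57878678 to 57946821 on GRCm38, plus strand) varied widely within each group. It had 3974, 3098, 2965 and 4095 normalized counts in Anesthesia replicates 1 to 4, and 2893, 3696, 5275 and 4797 in Control replicates 1 to 4. Both the lowest and the highest mouse belonged to the Control group, whose coefficient of variation was 25.8%. The Slc12a2 fold change was -0.21 on the log2 scale, with a standard error of 0.18 and a 95% interval from -0.61 to 0.18 (limma, adjusted p = 0.754). Its order over the mice partly followed the choroid plexus and oligodendrocyte content of the libraries. The 6 oligodendrocyte markers summed to 94874 to 161834 normalized counts in the Anesthesia group and 83904 to 152961 in the Control group, all 6 had a lower mean log2 level in the Anesthesia group, 0 had an unadjusted p under 0.05, and none was at 0 in any mouse. The 3 mice with the least Slc12a2 (Control replicate 1, Anesthesia replicates 3 and 2) were also the 3 with the lowest choroid plexus sums, 4404 to 5018. Anesthesia replicate 4 had a choroid plexus sum of 10055, but the highest oligodendrocyte sum of all, and 4095 normalized counts of Slc12a2. With the choroid plexus level as a covariate the log2 fold change was 0.0086 (limma, unadjusted p = 0.943). Choroid plexus content was itself uneven between the groups, so this fit cannot separate content from group. With the oligodendrocyte level as a covariate, alone or beside the choroid plexus level, the log2 fold change stayed negative. Without a covariate it was -0.38 without Control replicate 1 (limma, unadjusted p = 0.0303) and -0.087 without Control replicate 3. Beyond these fits, the part of either content in the Slc12a2 level was not tested.

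**Figure D3:**
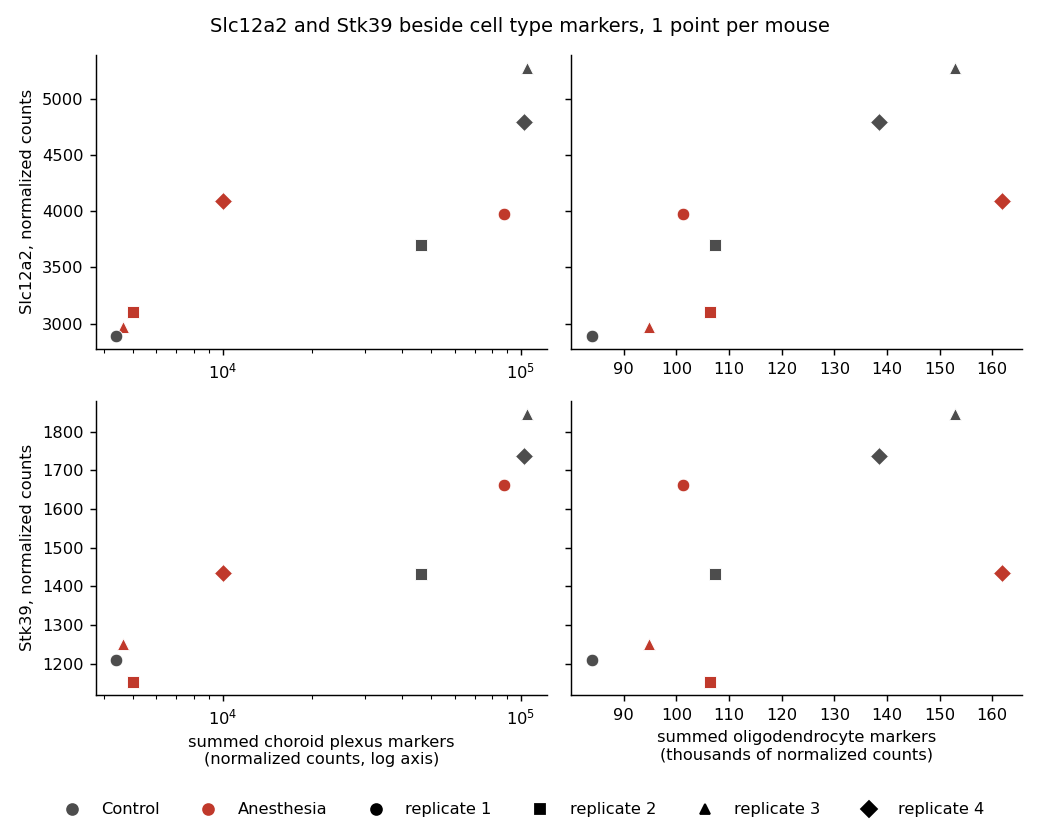
Slc12a2 (top) and Stk39 (bottom), in normalized counts, beside the summed level of 14 choroid plexus markers (left, log axis) and of 6 oligodendrocyte markers (right, linear axis), 1 point per mouse. The 3 mice with choroid plexus sums of 4404 to 5018 have the least Slc12a2 and Stk39, and Control replicates 3 and 4 have the most.

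Slc12a5 (ENSMUSG00000017740, chromosome 2, 164960802 to 164999731 on GRCm38, plus strand) had 5246, 5692, 7622 and 5918 normalized counts in Anesthesia replicates 1 to 4. The Control mice had 5581, 6115, 5432 and 5591. Outside Anesthesia replicate 3, the 7 mice lay between 5246 and 6115, and the Anesthesia group held both the lowest and the highest value. The log2 fold change was 0.094 (standard error 0.10, 95% interval -0.13 to 0.32, adjusted p = 0.804 from limma). It was -0.016 without Anesthesia replicate 3 and -0.055 once the GC content and length dependence of each library was removed. With the choroid plexus covariate it was 0.019, where that of Slc12a2 was 0.0086. Anesthesia replicate 3 also had the highest summed level of 6 pan-neuronal markers, 92756 against 80721 to 87545 in the other mice, and the lowest of 6 dentate granule markers, 2799 against 2999 to 6847. Its summed endothelium markers were the highest, at 4696 against 3466 to 4337. Its mean log2 level of CA1 markers was the lowest, at 9.48 against 9.68 to 10.007, but its CA1 sum was not. The part of these differences in the Slc12a5 level was not tested.

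The ratio of Slc12a5 to Slc12a2 transcripts was taken within each mouse, which does not depend on the scaling of the library. In whole hippocampus this ratio mixes cell types, so it does not give the balance of export and import in neurons. It was 1.32, 1.84, 2.57 and 1.45 in Anesthesia replicates 1 to 4, and 1.93, 1.65, 1.03 and 1.17 in Control replicates 1 to 4. Every mouse had more Slc12a5 than Slc12a2, and the groups overlapped, with the Anesthesia mouse higher in 11 of the 16 pairs of an Anesthesia and a Control mouse. The mean log2 ratio was 0.79 ± 0.43 after anesthesia and 0.48 ± 0.42 in Control mice (mean ± SD of 4). This difference of 0.31 (95% interval -0.43 to 1.05) was smaller than the SD of either group. An exact two-sided permutation test gave p = 0.371 and an adjusted p of 0.514 over 2 ratios, and the smallest p that 4 mice against 4 allow is 0.0286. Per kilobase, the ratio was 1.94 ± 0.609 after anesthesia and 1.56 ± 0.454 in Control mice (mean ± SD of 4). Without Anesthesia replicate 3 the difference of the mean log2 ratios was 0.12, without Control replicate 3 it was 0.16, and after correction for GC content and transcript length it was 0.17. The 4 mice with choroid plexus sums of at least 46345 had ratios of 1.03 to 1.65, and the other 4 had 1.45 to 2.57.

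**Figure D4:**
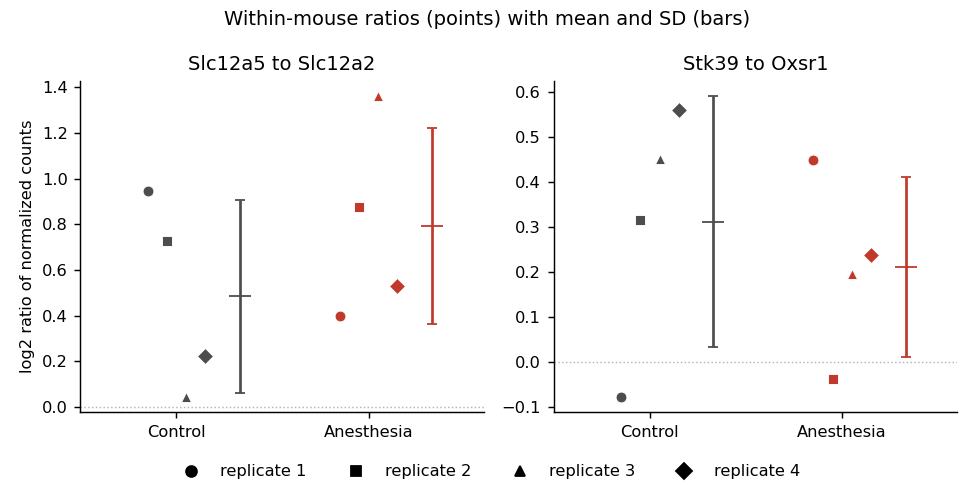
Log2 ratio of normalized counts within each mouse, Slc12a5 to Slc12a2 on the left and Stk39 to Oxsr1 on the right, with 1 point per mouse and the mean and SD of 4 mice beside the points (the dotted line marks equal counts). The groups overlap in both panels, and Anesthesia replicate 3 has the highest Slc12a5 to Slc12a2 ratio, 1.36 on the log2 scale.

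Among the WNK kinases, Wnk2 (ENSMUSG00000037989, chromosome 13, 49036303 to 49148014, minus strand) had the largest fold change of the 7 genes. It had 835, 725.4, 1277 and 897.9 normalized counts in Anesthesia replicates 1 to 4. The Control mice had 658.5, 767.5, 696.2 and 765.7. Anesthesia replicate 2 lay within the Control range and the other 3 Anesthesia mice above it, with the highest value in Anesthesia replicate 3, as for Slc12a5. The log2 fold change was 0.34 (standard error 0.15, 95% interval 0.013 to 0.67, unadjusted p = 0.043 and adjusted p = 0.622 from limma). It was 0.18 without Anesthesia replicate 3 and 0.14 after correction for GC content and transcript length, with an unadjusted p of 0.0825 and 0.251 from limma. Its unadjusted p stayed under 0.05 without Anesthesia replicate 1 or 2 and was 0.0524 to 0.102 without any 1 of the other 6 mice. The GC content of the longest Wnk2 coding transcript was 62.4%, the highest of the 7 genes.

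Wnk1 (ENSMUSG00000045962, chromosome 6, 119923969 to 120038672, minus strand) is the broadly expressed WNK kinase. It ranged from 3869 to 4895 normalized counts in the Anesthesia group and from 3975 to 5098 in the Control group, so that its log2 fold change was -0.065 ± 0.091 (SE, limma, adjusted p = 0.847). Wnk1 was highest in Control replicate 3 and Anesthesia replicate 4, the mice with the highest oligodendrocyte sums. After correction for GC content and transcript length its log2 fold change was -0.18 (unadjusted p = 0.0722 from limma), and with 1 mouse left out it ran from -0.13 without Anesthesia replicate 4 to -0.006 without Control replicate 3. Wnk3 (ENSMUSG00000041245, chromosome X, 151198078 to 151320152, plus strand), a WNK kinase enriched in brain, had 1417 to 1851 against 1378 to 1681 normalized counts. Its log2 fold change was 0.11 ± 0.096 (SE, limma, adjusted p = 0.776), and 0.054 after the same correction. It was 0.034 without Anesthesia replicate 4 and 0.17 without Control replicate 2. The gene overlaps A230072E10Rik on the opposite strand, and 440 stretches of 31 bases in the Wnk3 transcripts also occur there in reverse complement. The sources name both a stranded and another library kit, so the Wnk3 values are uncertain to that extent.

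The SPAK gene Stk39 (ENSMUSG00000027030, chromosome 2, 68210445 to 68472268, minus strand) had 1661, 1153, 1251 and 1434 normalized counts in Anesthesia replicates 1 to 4. The Control mice had 1209, 1432, 1846 and 1738. Its order over the mice was close to that of Slc12a2: Control replicates 3 and 4 were highest in both, and Control replicate 1 and Anesthesia replicates 2 and 3 were the lowest 3 in both. The log2 fold change was -0.17 (standard error 0.15, 95% interval -0.49 to 0.15, adjusted p = 0.754 from limma), and 0.016 with the choroid plexus covariate. With 1 mouse left out it ran from -0.29 without Control replicate 1 to -0.084 without Control replicate 3. Oxsr1 (ENSMUSG00000036737, chromosome 9, 119238432 to 119322427, minus strand), which encodes the related kinase OSR1, was the steadiest of the 7. It lay between 1091 and 1216 normalized counts in the Anesthesia group and between 1150 and 1349 in the Control group, and its log2 fold change was -0.072, with a 95% interval from -0.23 to 0.084 (limma, adjusted p = 0.785). It was -0.030 without Control replicate 3 and -0.037 without Anesthesia replicate 3. Its highest value over its lowest was 1.24 across the 8 mice, against 1.6 for Stk39, 1.82 for Slc12a2 and 1.94 for Wnk2.

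The ratio of Stk39 to Oxsr1 was 1.37, 0.974, 1.15 and 1.18 in Anesthesia replicates 1 to 4. It was 0.947, 1.24, 1.37 and 1.48 in Control replicates 1 to 4. The lowest and the highest mouse both belonged to the Control group. The mean log2 ratio was 0.21 ± 0.20 after anesthesia and 0.31 ± 0.28 in Control mice (mean ± SD of 4), a difference of -0.10 (95% interval -0.52 to 0.32) smaller than the spread within the Control group (exact two-sided permutation test, p = 0.514, adjusted p = 0.514). It was -0.23 without Control replicate 1 and -0.017 without Anesthesia replicate 2. No stretch of 31 bases was shared between transcripts of different genes among the 7, and at most 0.207% of such stretches, in Wnk1, occurred in the same orientation in any other gene.

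Genes with a pattern like that of the cotransporters over the 8 mice were looked for among 12249 genes with a mean of at least 100. The nearest to Slc12a2 were Cd82 (Pearson's r 0.995, Spearman's rho 1), Cfl2 (0.991, 1), Cdr2 (0.983, 1), Elovl7 (0.983, 0.905) and Ppfibp2 (0.969, 0.952), where Cfl2 encodes an actin-binding cofilin and Elovl7 a fatty acid elongase. Stk39 stood at 0.946 (rho 0.905). The nearest to Slc12a5 were Pak7 (0.984, rho 0.81), St6gal2 (0.978, rho 0.905), Fhod3 (0.97, rho 0.833), 4932442E05Rik (0.965, rho 0.905) and Ablim1 (0.965, rho 0.976). These values are descriptions of 8 libraries that fall into high and low choroid plexus content and also differ in oligodendrocyte content. Without Anesthesia replicate 3, Pearson's r of the 5 genes with Slc12a5 was 0.804 to 0.903 over 7 mice and Spearman's rho 0.714 to 0.964. They were selected as the highest of many and carry no test.

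Of the wider chloride pathway, 44 genes were listed and 42 were in the table and tested. In limma, 0 of the 42 passed at an adjusted p of 0.05, and 5 had an unadjusted p below that value (4 higher and 1 lower in the Anesthesia group), where the background is 4.75% of all genes higher and 3.27% lower. In 2, Relt and Usf2, the Anesthesia mice all lay above the Control mice, against 2.81% of all genes.

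Of 6 other SLC12 genes listed, 4 were measured, and Slc12a1 and Slc12a3 were not in the table. The measured ones, Slc12a4, Slc12a7, Slc12a8 and Slc12a9, split evenly into 2 higher and 2 lower after anesthesia, with a median of 0.017 on the log2 scale. The smallest unadjusted p among them was that of Slc12a7, which encodes the exporter KCC4 and had 81.5 to 116.96 normalized counts after anesthesia and 47.2 to 115.04 in Control mice. The fold change of Slc12a7 was 0.27 on the log2 scale, with a 95% interval from -0.33 to 0.87 (limma, adjusted p = 0.791), and it was 0.016 without Control replicate 2, the mouse with the lowest value.

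Of the 12 WNK and SPAK regulators, 2 had an unadjusted p under 0.05. Relt, a TNF receptor family member whose product binds SPAK and OSR1, had 156.9 to 183.3 normalized counts in the Anesthesia group and 119.1 to 141.5 in the Control group (log2 fold change 0.35, standard error 0.11, adjusted p = 0.62 from limma). Sgk1, a kinase induced by corticosteroids, had 1253 to 1874 against 1698 to 2447 (log2 fold change -0.42, standard error 0.14, adjusted p = 0.62 from limma), and its log2 fold change was -0.27 with the choroid plexus covariate. Wnk4 had 9 to 27.4 normalized counts in the Anesthesia group and 13.8 to 38.3 in the Control group, and its log2 fold change was -0.85 (95% interval -1.78 to 0.088, limma, adjusted p = 0.637). Its unadjusted p from limma was 0.0714, but 0.021 without Anesthesia replicate 2 and 0.0162 without Control replicate 3. The median log2 fold change of the list was -0.060.

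Of 14 KCC2 partners and regulators, 2 had an unadjusted p under 0.05 and the median log2 fold change was 0.032. Epb41l1, which encodes the cytoskeletal protein 4.1N that binds KCC2, had 5906, 7129, 6786 and 6660 normalized counts in the Anesthesia group and 5426 to 5956 in the Control group (log2 fold change 0.20, standard error 0.065, adjusted p = 0.62 from limma). After correction for GC content and transcript length its log2 fold change was 0.079 (limma, unadjusted p = 0.225). Usf2, which encodes an E-box binding factor, had 632.8 to 685.1 against 544.8 to 631.4 normalized counts, so that the groups did not overlap by a narrow margin (log2 fold change 0.17, standard error 0.072, adjusted p = 0.622 from limma). Its unadjusted p from limma was 0.038, and 0.065 with the choroid plexus covariate, 0.0756 after correction for GC content and transcript length, and 0.065 to 0.11 without Anesthesia replicate 1 or 3 or Control replicate 2 or 3. Usf1, the gene of the other E-box binding factor, went the other way (log2 fold change -0.13, unadjusted p = 0.242 from limma). Of 12 other anion transport genes, with a median log2 fold change of -0.005, only Slc4a3, a chloride-bicarbonate exchanger gene, had an unadjusted p under 0.05. It had 2055, 1936, 2727 and 1965 normalized counts against 1488 to 1950 (log2 fold change 0.31, standard error 0.12, adjusted p = 0.62 from limma). That log2 fold change was 0.19 without Anesthesia replicate 3, 0.18 after correction for GC content and transcript length, and 0.20 with the choroid plexus covariate. Its unadjusted p from limma was 0.0666 to 0.0886 without Anesthesia replicate 3 or Control replicate 3 or 4.

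**Figure D5:**
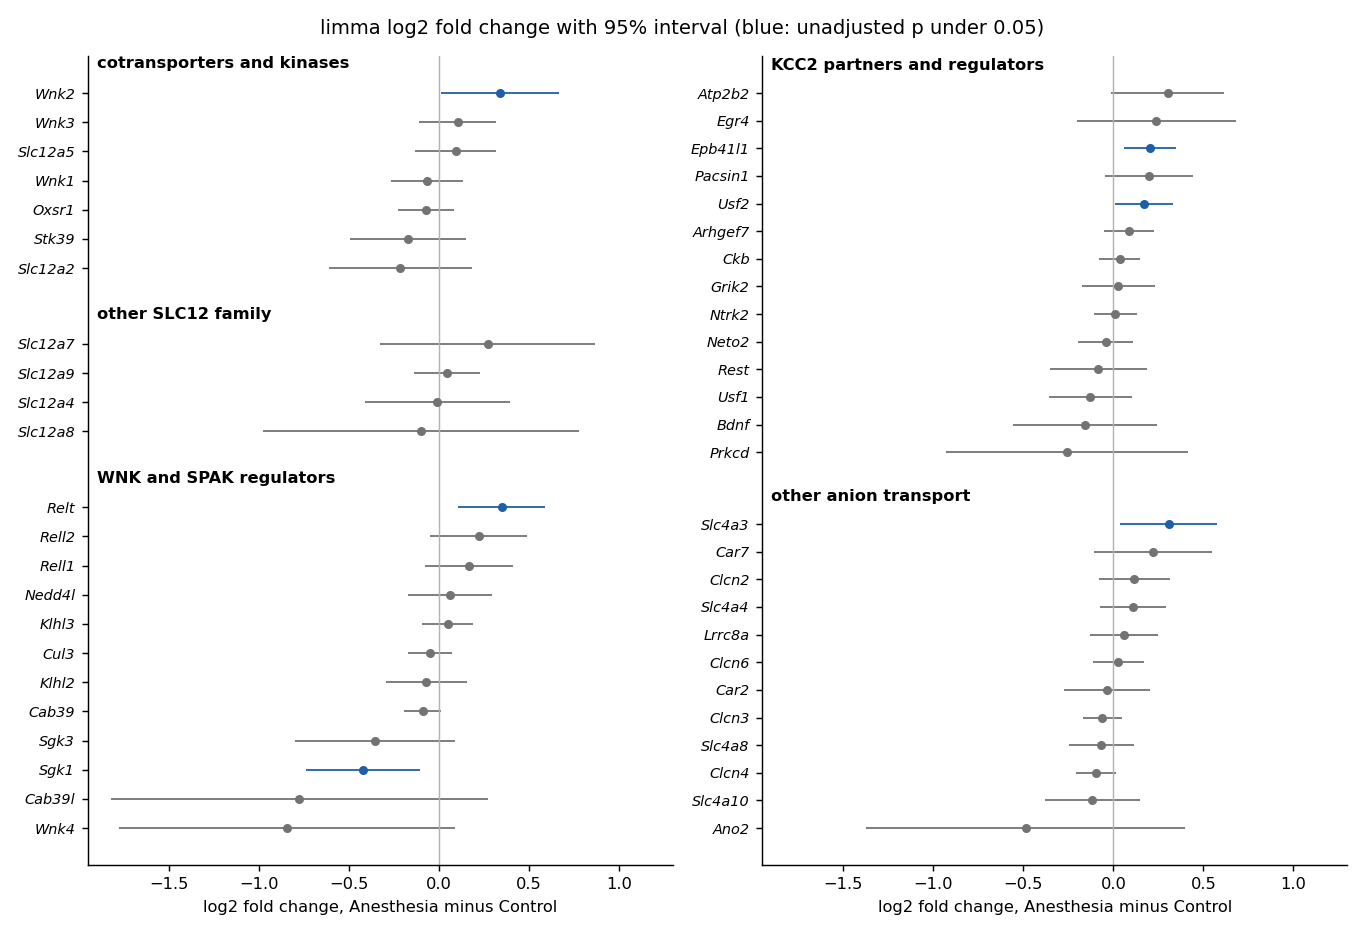
Log2 fold change (Anesthesia minus Control) with its 95% interval from limma for the 7 genes and the 42 tested genes of 4 pathway lists, in blue where the unadjusted p was under 0.05. Of the 7 genes only the interval of Wnk2 lies above 0, and no gene shown had an adjusted p under 0.05.

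For the other cell type lists, the median log2 fold changes were -0.094 for CA1, 0.030 for dentate granule, -0.039 for interneuron, 0.029 for pan-neuronal, -0.10 for astrocyte, -0.082 for oligodendrocyte, -0.026 for oligodendrocyte precursor, 0.086 for microglia, 0.096 for endothelium, -0.26 for thalamus and -0.23 for blood markers. Of these 60 markers, 4 (6.67%, against 8.02% of all genes) had an unadjusted p under 0.05 in limma (Rbfox3 higher, and Gad1, Calb2 and Tcf7l2 lower in the Anesthesia group), and 0 passed after adjustment. The groups did not overlap for 4 of the 60 (against 5.04% of all genes), with P2ry12 and Rbfox3 higher and the astrocyte markers Gja1 and Slc1a3 lower in the Anesthesia group. The median log2 level of the 6 astrocyte markers, relative to the Control mean, was -0.11 to -0.056 in Anesthesia mice and -0.017 to 0.0019 in Control mice, while their summed levels overlapped. Control mice lie near 0 on this measure by construction, and the separation was not tested. Apart from the fits with choroid plexus and oligodendrocyte covariates, the part of these differences in the levels of the 7 genes was not tested.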

How the data were processed

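RNA-sequencing of the hippocampus of 4 Anesthesia and 4 Control mice was analysed from a table with 1 column per mouse, matched by group letter and number. Per the study's methods and processing notes, the authors quantified reads against GRCm38 transcripts by Salmon quasi-mapping (1.1.0, GC bias corrected), merged them into genes using tximport and divided them by DESeq2 (1.30.1) size factors. The deposited values are thus a normalized signal rather than raw counts. The annotation release and low-count filter are not given in the sources used here. In place of a count model, groups were compared with limma (version 3.58.1, R version 4.3.3) with its trend option on log2(value + 1), Benjamini-Hochberg adjustment and a mean of at least 10; 1937 genes fell below it. Symbols, positions, lengths and GC content came from GENCODE M21, which held 20784 identifiers and lacked 18. Promoters came from RefSeq, which was used for 6 of the 7 genes. Ratios were compared by exact permutation. The 7 genes and the gene lists were chosen with earlier results of these data known. Named genes were the 7, Wnk4, list genes with an unadjusted p under 0.05 (or the smallest p of a list) and the 5 nearest in pattern. No libraries were alike enough to be duplicates (SD of log2 ratios 0.45 to 0.672). Alternatives were limma voom, upper quartile and total scaling, a pseudocount of 0.1, other filters, an adjusted p under 0.10, GC content and length correction, the replicate block, cell type covariates and each mouse left out. Some genes are not reported here and were left out of the lists.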

Additional observations from a re-analysis of the deposited data

Results flagged for a closer look

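Of 40 groups of 4 mice examined over the 14 named genes, the 2 ratios and the 4 pathway lists, 3 held a mouse far from the other 3, and about 2 would by chance. Anesthesia replicate 3 had 2727 normalized counts of Slc4a3, against 1936 to 2055 in the other Anesthesia mice (its gap was 0.85 of the group's range). The median log2 level of the KCC2 partners and regulators, relative to the Control mean, was 0.0014 in Anesthesia replicate 1 and 0.096 to 0.11 in the other Anesthesia mice (0.896). It was -0.024 to -0.0017 in Control mice, below every Anesthesia mouse, while the summed levels of the list overlapped. Control mice lie near 0 on this measure by construction, since each gene is set against its Control mean. This separation was not tested. The median log2 level of the other anion transport genes was 0.088 in Anesthesia replicate 4 and -0.033 to -0.021 in the other Anesthesia mice (0.898).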

How the results depend on the processing

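The oligodendrocyte covariate, alone or with the choroid plexus covariate, was chosen after seeing the data. None of the 7 passed at an adjusted p of 0.05 in any fit. The count of all genes passing was 0 in every fit except without Control replicate 1, where 2 passed (mt-Nd4l and Gm10222), so it ranged from 0 to 2 with a mouse left out. The count of the 7 with an unadjusted p under 0.05 was 1, and 0 with scaling to the same total, limma voom, the replicate block, correction for GC content and length with or without that block, and each covariate setting (0 to 1 with a mouse left out). The number whose groups did not overlap was 0, and 1 (Wnk2) without Anesthesia replicate 2, where 9.51% of all genes did not overlap. Slc12a5 reversed to -0.055 with correction for GC content and length, with or without the block, and to -0.016 without Anesthesia replicate 3 (-0.016 to 0.16 with a mouse left out). Slc12a2 reversed to 0.0086 with the choroid plexus covariate, and Stk39 to 0.016 with it and 0.0016 with both covariates. Genes with an unadjusted p under 0.05 numbered 1513, and 876 with the GC content and length correction with block, 868 with the choroid plexus covariate and 790 with both covariates (1061 to 2024 with a mouse left out). In the pathway lists the count was 5. It was 3 with the replicate block or with correction for GC content and length, and 2 with that correction with block or with both covariates (3 to 10 with a mouse left out, the lowest without Anesthesia replicate 3 and the highest without Anesthesia replicate 2). Against the longest transcript, 5 genes kept their place in the order per kilobase with exon unions and 1 with the median coding transcript. The cause of these changes was not tested. Replicate numbers do not pair the mice, with correlations of the deviations of -0.242, -0.109, -0.182 and 0.019, and with the replicate block the difference of the Slc12a5 to Slc12a2 log2 ratio was 0.31 (exact sign-flip permutation p = 0.625).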
